A study of Mus musculus with 18 samples.

Results

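The 39 mouse Hox genes, those whose symbol is Hoxa, Hoxb, Hoxc or Hoxd followed only by digits, were read out in 17 Dbx1-derived neurons of the preBötzinger complex (preBötC). They are 39 of the 55367 genes in the deposited tables, and were chosen by name, without use of a measured value. By the number in the symbol they form 13 paralogue groups, of which groups 1 to 5 hold 15 genes and groups 6 to 13 hold 24. The neurons came from brainstem slices of Dbx1;Ai148 pups at postnatal days 0 to 2, offspring of Dbx1cre and Ai148 mice on a C57Bl/6J or mixed C57Bl/6J;CD1 background, in which Cre turns on the calcium indicator GCaMP6f, and no drug or genetic manipulation separated the groups. Each neuron was picked by its rhythmic fluorescence, recorded in whole-cell mode and emptied into the pipette, and its poly(A)+ RNA was amplified and sequenced (Patch-Seq). By their electrophysiology 7 neurons were labelled Type-1 (delayed excitation), 9 were labelled Type-2 (a sag potential) and 1 was labelled Unknown. The Cre line marks every cell whose precursor expressed Dbx1, so the label does not restrict the neurons to a single fate, and only cytoplasm was collected. The neurons came from fewer slices than there are neurons, and which of them shared a slice is not given, so that the p-values below measure the spread between neurons.

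Hox genes encode homeodomain transcription factors that stand in 4 clusters, A to D, and each paralogue group is the set of genes at the same place in different clusters. In the embryo they are switched on in the order in which they lie, with low-numbered groups reaching furthest forward into the hindbrain and high-numbered groups restricted to the trunk and tail. In the hindbrain this code assigns identity to the rhombomeres, the segments from which the preBötC and its neighbours derive, and retinoic acid and the cofactors of the Pbx and Meis families act with it.

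The 250 bases before the RefSeq start are shown for Hoxc4, the Hox gene with the most fragments in these neurons, for Hoxa2, found in 13 of 17 neurons as Hoxc4 was, and for Hoxd13, a gene of the last group with 0 fragments. All read 5′ to 3′ on the gene's own strand in build GRCm38.p6, from chr15:103034145-103034394 (plus strand) for Hoxc4, chr6:52164832-52165081 (minus strand) for Hoxa2 and chr2:74667975-74668224 (plus strand) for Hoxd13. Capitals mark matches on either strand to TGATNNAT, the sequence that Pbx and Hox proteins bind together, to the Meis motif TGACAG, or to AGGTCA, the element that retinoid receptors bind.
Hoxc4: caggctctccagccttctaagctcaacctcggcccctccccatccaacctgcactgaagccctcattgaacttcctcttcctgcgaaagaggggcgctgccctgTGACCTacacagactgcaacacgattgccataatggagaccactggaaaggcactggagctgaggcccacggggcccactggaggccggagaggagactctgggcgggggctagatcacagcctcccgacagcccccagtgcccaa
Hoxa2: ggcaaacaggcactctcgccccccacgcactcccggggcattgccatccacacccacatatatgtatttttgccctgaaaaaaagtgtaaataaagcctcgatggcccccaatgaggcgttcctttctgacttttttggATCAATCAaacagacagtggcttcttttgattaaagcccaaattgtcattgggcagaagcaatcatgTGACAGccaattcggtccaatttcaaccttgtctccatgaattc
Hoxd13: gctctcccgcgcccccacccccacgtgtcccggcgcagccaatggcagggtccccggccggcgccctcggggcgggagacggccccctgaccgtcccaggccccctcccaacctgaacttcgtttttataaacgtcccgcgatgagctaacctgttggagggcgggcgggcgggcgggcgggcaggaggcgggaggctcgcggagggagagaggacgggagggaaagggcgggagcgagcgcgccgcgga
Hoxc4 held 1 match to AGGTCA, which begins 146 bases before the start, and Hoxa2 held 1 match to TGATNNAT at 111 bases and 1 to TGACAG at 44 bases before it. Hoxd13 held no match to these letters. Promoters were on file for 22 of the 39 genes, 24 windows in all. Among these, AGGTCA occurred in 4 of 9 windows of groups 1 to 5 and in 2 of 15 of groups 6 to 13, beside 14.0% of all 32841 promoter windows of the same length. TGATNNAT occurred in 4 of the 24 Hox windows beside 7.69% of all, and TGACAG in 2 of 24 beside 15.9%. The RefSeq start of Hoxc4 lies 15461 bases inside the longer gene that GENCODE draws, while that of Hoxa2 falls on the same base in both, so GENCODE draws a further Hoxc4 start outside the window shown.

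Library totals ran from 2280477 fragments in Neuron 12 to 13762335 in Neuron 17, and 10434 to 18174 genes were detected per neuron. The neuronal markers summed to between 368 and 1688 FPKM (fragments scaled by gene length and by the library's total) in the 16 classified neurons, and Tubb3, Stmn2 and Snap25 were found in 17 of 17 neurons. Slc17a6, a vesicular glutamate transporter of excitatory neurons, was found in 16 of 17. In 8 neurons (2, 3, 4, 7, 8, 11, 13 and 15) the inhibitory genes Gad1, Gad2, Slc6a5 and Slc32a1 together exceeded it in FPKM, and Neuron 13 had 0 fragments of Slc17a6 beside 3011 of Gad2 and 1815 of Slc6a5. Markers of other cells were present as well: the 10 microglial genes summed to between 0.0214 and 8242 FPKM, the 7 astrocyte genes to between 97.3 and 2293 FPKM, and the 4 inhibitory genes to at most 158 FPKM. A gene of the median Hox length, 2472 bases, had a floor of 0.532 FPKM (3 fragments) in Neuron 12 and of 0.0882 FPKM in Neuron 17, so a 0 below means not detectable at that depth. Floors cover counting error only, since the protocol names no molecular identifiers, and the intervals on shares of neurons below cover the sampling of neurons only.

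Hox transcripts were those of groups 1 to 5, with hardly any beyond. With at least 1 fragment taken as detection, 25 of 39 Hox genes (64.1%) were detected in some neuron, and 14 (35.9%) reached 10 fragments in at least 1 neuron. Of all 17267 Hox fragments, 99.8% fell on groups 1 to 5 and 0.185% on groups 6 to 13. All 15 genes of groups 1 to 5 were detected and 13 of them reached 10 fragments, beside 10 and 1 of the 24 genes of groups 6 to 13. The median gene length was 2568 bases in the first set and 2446 bases in the second. For scale, 81.9% of protein-coding genes were detected in some neuron and 67.7% reached 10 fragments.

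**Figure D1:**
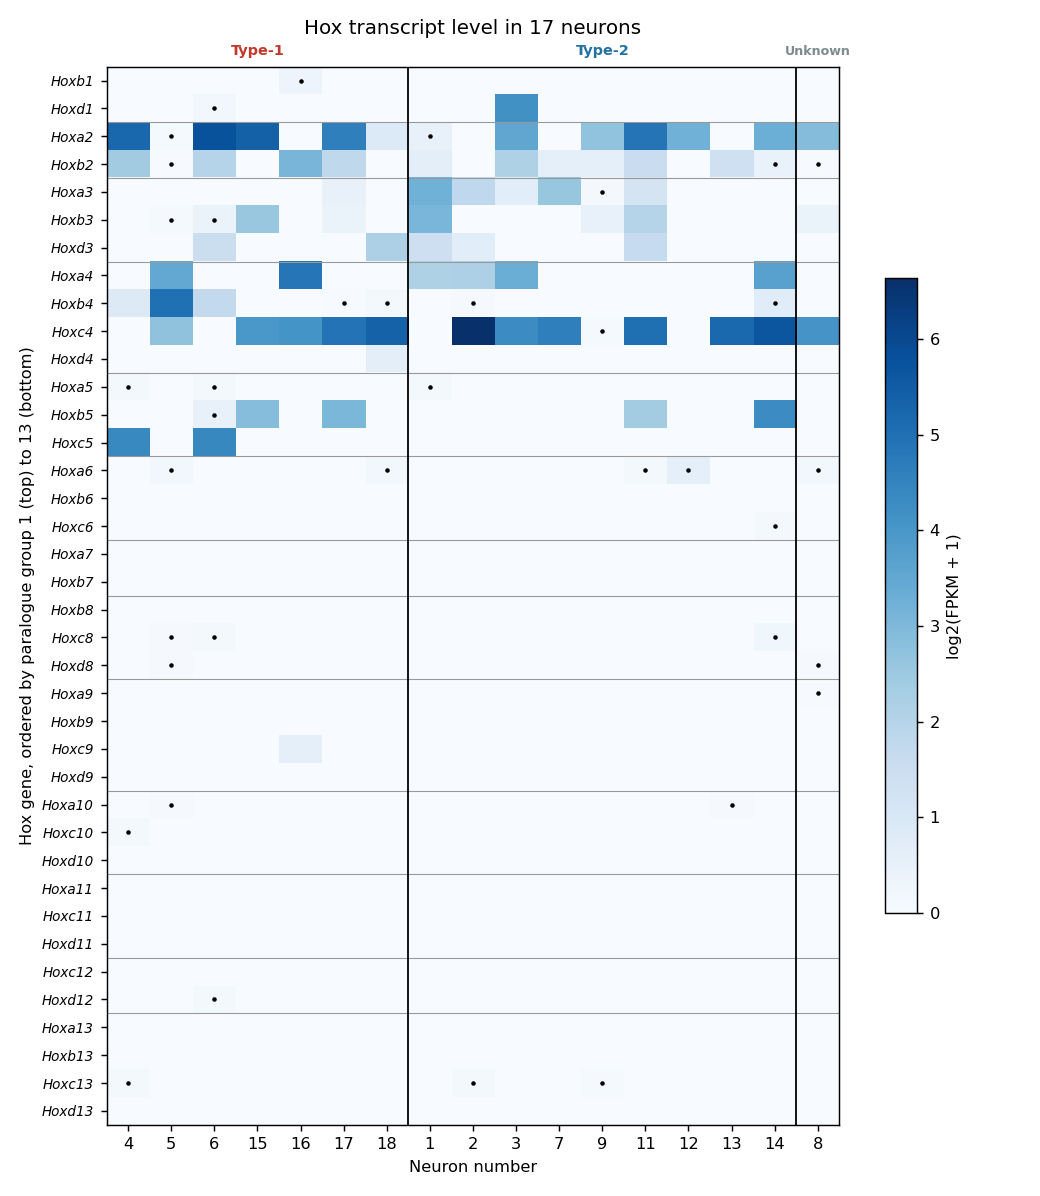
Level of Hox genes, as log2(FPKM + 1), in the 17 neurons, with genes in rows by paralogue group and neurons in columns by type. Dots mark values of 1 to 9 fragments. The dark cells lie in groups 1 to 5, and no 2 of the 17 columns hold the same set of genes at 10 fragments or more.

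Values in groups 1 to 5 spanned a wide range. In 255 combinations of gene and neuron, 88 values were above 0, with a median of 80.5 fragments; 68 of them reached 10 fragments and 42 reached 100. In groups 6 to 13, 20 of 408 values were above 0, with a median of 1 fragment, 16 of them were exactly 1, and the highest was 10. The same gene stood far above 100 fragments in some neurons and at 0 in others. Hoxc4 was at 0 in Neurons 1, 4, 6 and 12, whose libraries held 2280477 to 5522830 fragments. In that range of depth Neuron 14, with a library of 3838187, held 487 fragments. Every library deeper than 5522830 fragments held Hoxc4, with as few as 2 fragments in Neuron 9. The part of depth in these zeros was not tested.

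**Figure D2:**
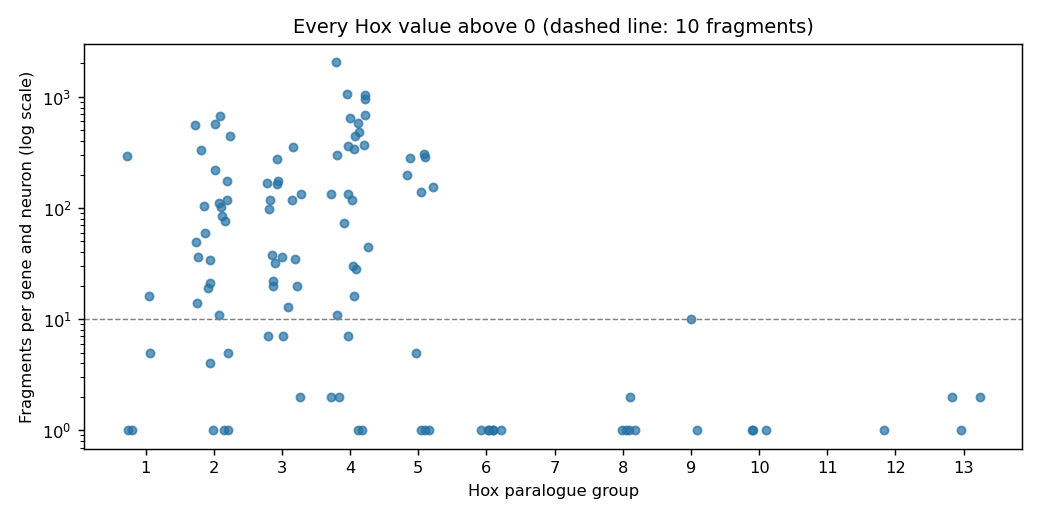
Every Hox value above 0, in fragments on a log scale, by paralogue group, with 1 point per gene and neuron. Of the values in groups 1 to 5, 68 of 88 lie on or above the dashed line at 10 fragments; in groups 6 to 13, 1 of 20 does.

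By group, transcripts of groups 2 and 4 were the most widespread. At 10 fragments or more, group 2 was present in 15 of 17 neurons (88.2%, exact Clopper-Pearson 95% interval 63.6 to 98.5%) and group 4 in 15 of 17 as well. Group 3 was present in 11 neurons (64.7%, 38.3 to 85.8%), group 5 in 6 (35.3%, 14.2 to 61.7%) and group 1 in 2 (11.8%, 1.46 to 36.4%). The intervals of groups 2 and 4 do not overlap those of groups 1 and 5, whereas that of group 3 overlaps its neighbours on both sides. All these shares come from the same 17 neurons, and the groups hold 2 to 4 genes each. The overlap is therefore a description and not a test between groups. For groups 6, 7, 8, 10, 11, 12 and 13 the count was 0 of 17, which allows up to 19.5%. By fragments, group 4 held 57.3% of the Hox total, group 2 22.2%, group 3 10.6%, group 5 7.97% and group 1 1.82%.

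**Figure D3:**
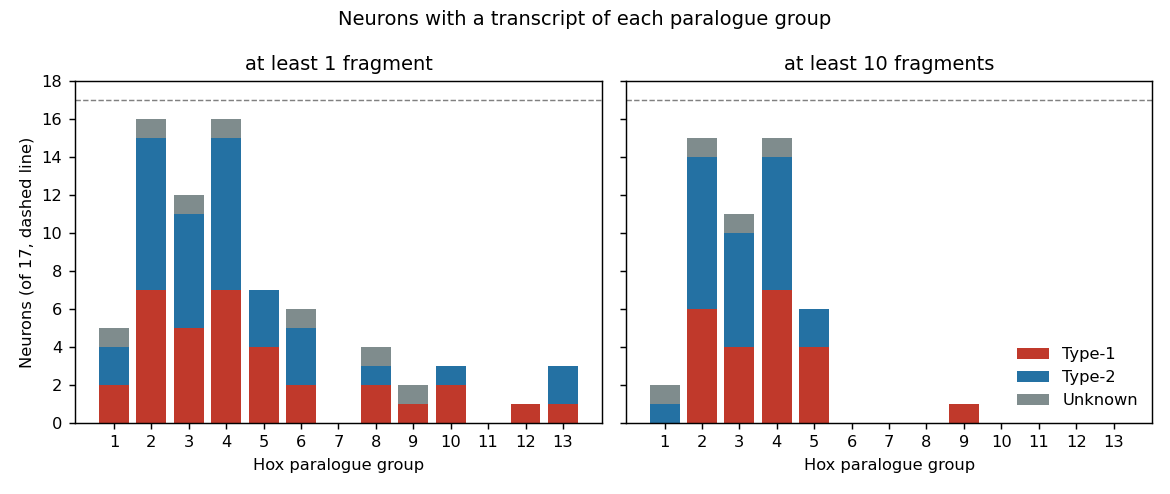
Number of neurons with a transcript of each paralogue group, at 1 fragment (left) and at 10 fragments (right), stacked by type. At 10 fragments groups 2 and 4 each reach 15 of 17 neurons, and beyond group 5 a lone Type-1 neuron remains, at group 9.

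Group 1 genes, which mark the hindbrain segments nearest the ear in the embryo, were almost silent. Hoxd1 (chromosome 2) had 292 fragments, or 16.9 FPKM, in the Type-2 Neuron 3, 1 fragment in the Type-1 Neuron 6 and 0 in the other neurons. Hoxb1 had 5 fragments in the Type-1 Neuron 16 and 0 elsewhere. So Hoxd1 and Hoxb1 each rested on a different neuron, and 12 of 17 neurons held no fragment of the group.

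Group 2 genes reach furthest forward of all Hox genes, and Hoxa2 (chr6:52162417-52164831, minus strand) is needed for the identity of the second branchial arch. Hoxa2 was detected in 13 of 17 neurons, 6 of 7 Type-1 and 6 of 9 Type-2 and the Unknown. Its level ran from 0 to 53.3 FPKM with a median of 23.0 in Type-1 neurons, and from 0 to 28.6 FPKM with a median of 5.38 in Type-2 neurons. The 3 highest values, in Neurons 6, 15 and 4, belonged to Type-1, above every Type-2 neuron, whereas the other 4 Type-1 values lay within the range of Type-2, and both types held neurons at 0. Hoxb2 (chromosome 11) was found in 13 neurons too, at lower levels, from 0 to 7.59 FPKM in Type-1 and from 0 to 3.42 FPKM in Type-2. Hoxa2 was the higher of the pair in 12 neurons and Hoxb2 in 4, and both reached 10 fragments in 6 neurons.

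Group 3 marks the caudal hindbrain, where Hoxa3 and its paralogues pattern the segments behind the ear. Hoxa3 was detected in 6 of 9 Type-2 and in 1 of 7 Type-1 neurons. In Type-2 neurons it ran from 0 to 8.28 FPKM with a median of 0.643, and in Type-1 neurons 6 were at 0 and Neuron 17 had 0.387 FPKM. Among Type-2 neurons, Neurons 1 and 7 were high and Neurons 12, 13 and 14 were at 0, so the types overlapped at the low end. The annotated Hoxa3 gene spans Hoxa4, Hoxa5 and Hoxa6 on the same strand, and all 3 genes of the group overlap a gene on the other strand. How reads in such overlaps were assigned is not given in the sources used here. Hoxb3 was detected in 8 neurons and reached 7.41 FPKM in Neuron 1, with 4.98 FPKM in Neuron 15 as the highest Type-1 value. Hoxd3 was detected in 5 neurons, always with at least 22 fragments, and reached 3.45 FPKM in Neuron 18. All 3 paralogues were present at 10 fragments in 2 neurons and none of them in 6.

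Group 4 supplied the most Hox RNA, through Hoxc4, a member of a group whose front borders lie in the caudal hindbrain. Hoxc4 (chr15:103018934-103036852, plus strand) held 8400 fragments, 85.0% of its group, and was detected in 13 neurons. Its level ran from 0 to 40.0 FPKM with a median of 14.8 in Type-1 neurons, and from 0 to 98.3 FPKM with a median of 23.1 in Type-2 neurons. Neuron 2 stood highest, and 2 neurons of each type were at 0. Hoxa4 was detected in 6 neurons, each with at least 30 fragments, and reached 27.9 FPKM in the Type-1 Neuron 16 and 11.9 FPKM in the Type-2 Neuron 14. Hoxb4 was detected in 5 of 7 Type-1 neurons, where it ran from 0 to 30.5 FPKM with a median of 0.0841, and in 2 of 9 Type-2 neurons, where it reached 0.711 FPKM. That high value belongs to Neuron 5, with 641 of the 691 Hoxb4 fragments, and the next, in Neuron 6, was 28 fragments. Hoxd4 was found in Neuron 18 alone, with 16 fragments. Its gene body lies across that of Hoxd3, which had 134 fragments in the same neuron, so the assignment between them is uncertain.

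Group 5, whose front borders lie near the junction of medulla and spinal cord, was seen mainly through Hoxb5 and Hoxc5. Hoxb5 was detected in 5 neurons and reached 10 fragments in Neurons 11, 14, 15 and 17, with the highest level, 18.7 FPKM, in Neuron 14. Hoxc5 (chr15:102967443-103017429, plus strand), described here after its values were seen, stood at 309 fragments (19.5 FPKM) in the Type-1 Neuron 4, at 289 fragments (19.9 FPKM) in the Type-1 Neuron 6 and at 0 in the other 15. No neuron held both genes at 10 fragments, and 11 neurons held neither. Hoxb5 reached that level in 4 neurons and Hoxc5 in 2, too few to read the absence of overlap as exclusion. Neuron 6 also held 5 fragments of Hoxb5. Hoxa5 had 3 fragments in all. The annotated Hoxc5 gene spans Hoxc6, Hoxc8 and Hoxc9 on the same strand and overlaps most of Hoxc10. It also spans the microRNA gene Mir196a-2, which had 43 fragments in Neuron 4 and 0 elsewhere. Hoxc10 had 1 fragment in Neuron 4 and Hoxc8 had 1 in Neuron 6.

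Groups 6 to 13, the trunk and tail genes, were at the limit of detection. The exception was Hoxc9 in the Type-1 Neuron 16, with 10 fragments. The remaining genes of groups 9 to 13 that were seen at all were Hoxa9 (1 fragment in the Unknown neuron), Hoxa10 (1 each in Neurons 5 and 13), Hoxc10, Hoxd12 (1 in Neuron 6) and Hoxc13 (1 in Neuron 4 and 2 each in Neurons 2 and 9). In groups 6 and 8, Hoxa6 had 1 fragment in each of 5 neurons, Hoxc8 had 4 in all, Hoxd8 2 and Hoxc6 1. Summed over groups 6 to 13 the level was at most 0.502 FPKM in any neuron, in Neuron 12, where it came from 1 fragment of Hoxa6. No fragment was seen of Hoxb6, Hoxa7, Hoxb7, Hoxb8, Hoxb9, Hoxd9, Hoxd10, Hoxa11, Hoxc11, Hoxd11, Hoxc12, Hoxa13, Hoxb13 or Hoxd13.

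No pair of neurons shared a Hox profile. The 17 neurons held 17 different sets of genes at 10 fragments, and 10 different sets of paralogue groups. The authors state that false zeros occur in these libraries and cannot be told from biological ones. The part of such zeros in the differences between sets was not tested. The number of Hox genes per neuron ran from 2 to 11 with a median of 6 at 1 fragment, and from 1 to 7 with a median of 4 at 10 fragments. After every library was thinned to the 2280477 fragments of the shallowest, the expected median was 4.97 genes, from 2 in Neuron 12 to 8.89 in Neuron 6. The highest group at 10 fragments was 4 in 8 neurons and 5 in 6, and 2 in Neuron 12, 3 in Neuron 9 and 9 in Neuron 16. Clusters were mixed, with 3 neurons drawing on all 4 clusters and 1 neuron, the shallowest, on cluster A only. By fragments cluster C held 52.2% of the Hox total, cluster A 27.8%, cluster B 16.2% and cluster D 3.81%.

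**Figure D4:**
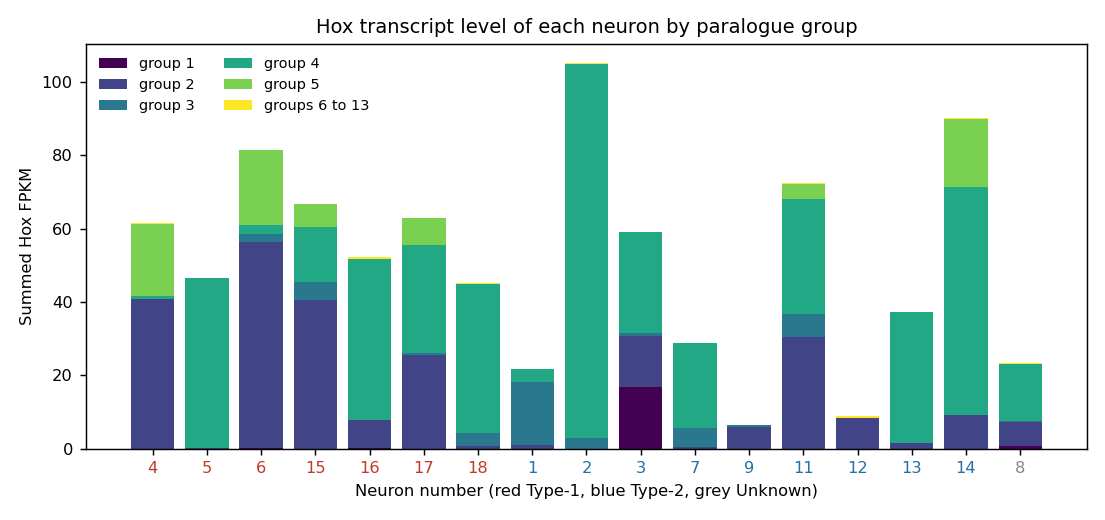
Summed Hox FPKM of each neuron, stacked by paralogue group, with Type-1 neurons first, then Type-2 and the Unknown neuron. Group 4 is the largest part in 11 neurons, group 2 in 5 and group 3 in Neuron 1.

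A single gene supplied most of the Hox level in most neurons. The leading gene was Hoxc4 in 9 neurons and Hoxa2 in 5, and Hoxa3, Hoxb4 and Hoxa4 led in Neurons 1, 5 and 16. Its share of the neuron's summed Hox FPKM ran from 31.6% in Neuron 3 to 95.5% in Neuron 13, with a median of 65.3%. The summed level ran from 45.1 to 81.4 FPKM with a median of 61.4 in Type-1 neurons, and from 6.55 to 105 FPKM with a median of 37.4 in Type-2 neurons. Both the lowest values, 6.55 FPKM in Neuron 9 and 8.90 FPKM in Neuron 12, and the highest, in Neuron 2, were of Type-2, and the Type-1 range lay inside that of Type-2. Neuron 12 was the shallowest library, whereas Neuron 9 was among the deeper, with 10994752 fragments. Across the 17 neurons the summed Hox level had a rank correlation (Spearman) of -0.10 with library total and of -0.43 with the summed microglial markers, given as a description because all values of a neuron share 1 library. The part of depth and of RNA from other cells in these differences was not tested.

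The comparison of Type-2 with Type-1 neurons asked which genes separate the electrophysiological types, and for the Hox genes no call held across tools. A call needed an adjusted p below 0.01 together with a log2 fold change beyond 1.5 in either direction. By edgeR's quasi-likelihood test over 31543 genes, 0 of the 24 Hox genes seen in the neurons with a type were called, and 0.0% of all genes were. At an unadjusted p under 0.05 the same fit held 4 of 24 Hox genes (Hoxa3, Hoxb4, Hoxc5 and Hoxd1) beside 13.2% of all genes, and with postnatal day as a factor 2 of 24 beside 7.17%. DESeq2 called 1 of the 10 Hox genes for which it gave an adjusted p, Hoxc5, beside 1.98% of all genes. The exact two-sided permutation test of mean log2(FPKM + 1) gave p under 0.05 for 2 of 24 Hox genes, Hoxa3 and Hoxb4, beside 2.54% of all genes, and an adjusted p under 0.05 for none of 31543. That share counts genes seen in 1 neuron, such as Hoxb1 (exact permutation p = 0.4375), which could not pass. It can therefore be low beside lists of widely detected genes, here and below. The median difference, Type-2 minus Type-1 on the log2(FPKM + 1) scale, was -0.01 over the 24 Hox genes and 0.00 over all genes, with a positive difference for 11 Hox genes and a negative one for 13.

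Hoxc5 was the Hox gene that DESeq2 called, with a log2 fold change of -25.2 (SE 2.99, DESeq2 adjusted p = 2.29e-14). That fold change has no bound, since Type-2 neurons were all at 0. Against a floor of 3 fragments over the Type-2 group, the pooled Type-1 level was at least 247-fold higher, and at least 131-fold without Neuron 4 or 139-fold without Neuron 6. The count rests on Neurons 4 and 6, with the other 5 Type-1 neurons at 0 like all 9 of Type-2. The edgeR log2 fold change was -9.91 (SE 2.89, edgeR adjusted p = 0.176), and the exact permutation p was 0.175.

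Hoxa3 had a higher mean in Type-2 neurons by 1.00 on the log2(FPKM + 1) scale, from a mean of 0.07 ± 0.18 (SD, n = 7) to 1.07 ± 1.22 (SD, n = 9). The exact permutation p was 0.0441, and 1 after adjustment over all genes. The edgeR adjusted p was 0.181. Within postnatal days the difference was -0.16 at day 0, 1.46 at day 1 and 1.31 at day 2, so it did not hold at day 0, where 3 Type-1 and 2 Type-2 neurons were compared. Leaving out Neuron 1 gave an exact p of 0.0760, and the p stayed under 0.05 in 4 of the 16 fits that each left out 1 neuron.

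Hoxb4 had a lower mean in Type-2 than in Type-1 neurons, going from a mean of 1.11 ± 1.83 (SD, n = 7) to one of 0.09 ± 0.26 (SD, n = 9). The difference was -1.01 with an exact permutation p of 0.0263, and 1 after adjustment over all genes. The edgeR adjusted p was 0.176. It was negative at each postnatal day, with -1.32 at day 0, -0.58 at day 1 and -0.86 at day 2. Without Neuron 5 it shrank to -0.37, with an exact p of 0.178. The p stayed under 0.05 in 5 of the 16 fits that each left out 1 neuron, and was 0.0664 with a pseudocount of 0.1. Without the neurons whose inhibitory genes exceeded Slc17a6, the difference between 5 Type-1 and 4 Type-2 neurons was -1.18 for Hoxb4 (exact permutation p = 0.317) and 0.75 for Hoxa3 (exact permutation p = 0.405).

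**Figure D5:**
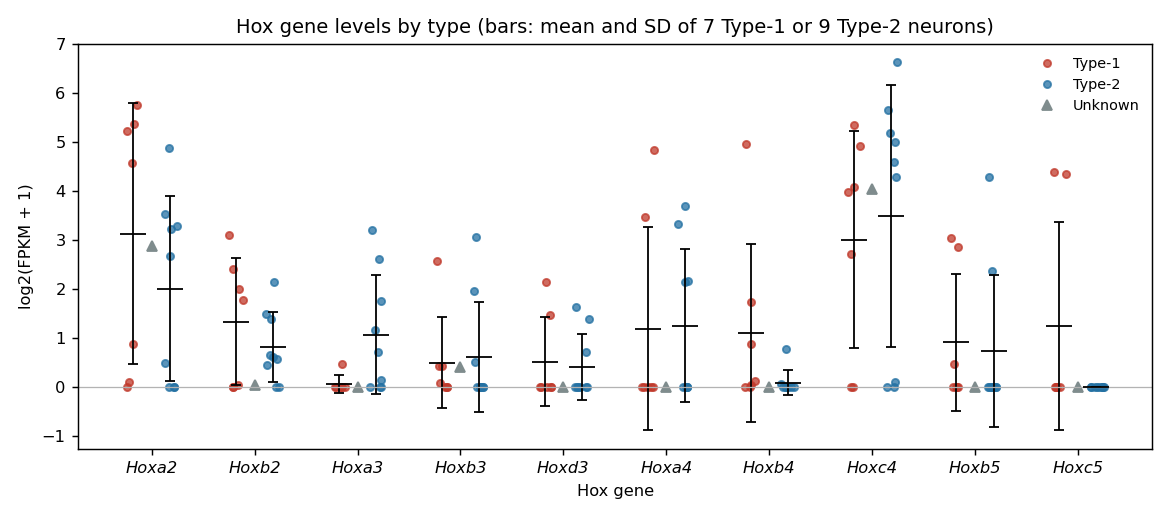
Level of 10 Hox genes as log2(FPKM + 1) in Type-1 (red), Type-2 (blue) and Unknown (grey triangle) neurons, with black bars for the mean and SD of the 7 Type-1 and 9 Type-2 neurons. Points of both types overlap for every gene, and for Hoxc5 the 2 points above 0 are Type-1 neurons.

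For the more abundant genes the spread within a type was larger than the gap between types. On the log2(FPKM + 1) scale the Type-1 mean of Hoxc4 was 3.01 ± 2.22 (SD, n = 7) and its Type-2 mean 3.50 ± 2.68 (SD, n = 9), a difference of 0.49 (exact permutation p = 0.692). The Hoxc4 difference was -0.010 without Neuron 4 or without Neuron 6, and -1.98 without the neurons whose inhibitory genes exceeded Slc17a6. For Hoxa2 the means over all 16 neurons were 3.13 ± 2.66 (SD, n = 7) and 2.01 ± 1.89 (SD, n = 9), a difference of -1.12 (exact permutation p = 0.339), which became 0.16 without those neurons. Hoxb2 differed by -0.52, Hoxa4 by 0.07, Hoxb3 by 0.11, Hoxb5 by -0.17 and Hoxd3 by -0.10, with exact permutation p from 0.328 to 0.978. Without the same neurons the sign also turned for Hoxa4 (-0.21) and Hoxb5 (0.37). By paralogue group at 10 fragments, group 4 was present in 7 of 7 Type-1 neurons (59.0 to 100%) and 7 of 9 Type-2 neurons (40.0 to 97.2%). Group 5 was present in 4 of 7 (18.4 to 90.1%) and 2 of 9 (2.81 to 60.0%), group 3 in 4 of 7 and 6 of 9, and group 2 in 6 of 7 and 8 of 9, and these intervals overlapped. Types were unevenly spread over age, with 3, 3 and 1 neurons of Type-1 at days 0, 1 and 2, and 2, 3 and 4 of Type-2.

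Cofactors with which Hox proteins bind DNA were present in every neuron. Meis1, Meis2 and Meis3 were found in all 17, whereas Pbx3 was found in 13, Pknox1 in 10 and Pknox2 in 6. All 9 genes of the TALE family (Meis, Pbx and Pknox) were detected, and each reached 10 fragments in at least 4 neurons. Meis2, Meis3 and Pbx4 had the highest mean levels, with medians of 27.8, 20.7 and 13.7 FPKM over the 17 neurons. Summed over the 9 genes, the level ran from 125 to 463 FPKM in Type-1 neurons (median 136) and from 46.0 to 156 FPKM in Type-2 neurons (median 93.4), so the ranges overlapped. None of the 9 was called by edgeR or DESeq2. The median difference over the list was -1.02 on the log2(FPKM + 1) scale, beside 0.00 over all genes, and 1 of 9, Meis1, named after its value was seen, had an exact permutation p under 0.05 beside 2.54% of all genes (difference -1.90, exact permutation p = 0.0494, 1 after adjustment over all genes).

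Regulators of the clusters were mostly present too, and neither edgeR nor DESeq2 called a gene of the Polycomb and trithorax, retinoic acid, upstream, rostral or noncoding lists. Of 12 Polycomb and trithorax genes, which keep Hox genes off or on through cell division, 12 were detected, led by Rnf2, Eed and Kmt2a at medians of 26.1, 6.63 and 5.78 FPKM. The exact permutation p was under 0.05, higher in Type-2, for 2 of the 12, beside 2.54% of all genes. These were Rnf2 (difference 2.06, exact permutation p = 0.0331) and Ezh1 (2.35, exact permutation p = 0.000437), the latter named after its value was seen, each with a p of 1 after adjustment over all genes. All 12 genes of retinoic acid signalling were detected and none had an exact p under 0.05. The retinoic acid binding protein Crabp1 was the highest by mean level, with a median of 74.3 FPKM, followed by Rxrb and Rxrg, at medians of 0.0541 FPKM and 0. Of 8 upstream axial regulators, the 3 Cdx genes, which act on posterior Hox genes in the embryo, were at 0 in every neuron. Egr2, the rhombomere gene Krox20 that drives Hoxa2 and Hoxb2 in the embryo, was detected in 8 neurons, with 6359 of its 8333 fragments in Neuron 17. Neuron 17 also had the highest microglial sum, 8242 FPKM, whereas Neuron 7, at 6931 FPKM, had 0 fragments of Egr2. The source of the Egr2 transcripts was not tested. Nr6a1 was detected in 12 neurons, and no gene of that list had an exact p under 0.05.

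Genes listed as rostral axial genes were scattered, and no axial position of a neuron was read from them. Of 10 rostral axial genes 8 were detected, and Emx1 and En2 were at 0. Gbx2, a gene of the anterior hindbrain, had 195 to 925 fragments in Neurons 8, 9 and 13 and 70 in Neuron 11. En1 had 181 fragments in Neuron 15, 99 in Neuron 6 and 10 in the Type-2 Neuron 13, and Otx2 had 152 in Neuron 6. In Neuron 6 these transcripts stood beside 11 Hox genes at 1 fragment or more, the most of any neuron, of which 5 reached 10 fragments, fewer than in Neurons 3, 11 and 17. Otx1, named after its value was seen, was detected in 5 of 7 Type-1 and 0 of 9 Type-2 neurons with at most 11 fragments (difference -0.09, exact permutation p = 0.00481, 1 after adjustment over all genes).

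Noncoding transcripts of the clusters were present too. Of 10 such genes listed, 8 were detected, and Hoxb5os and Hottip were at 0. Hotairm1, a transcript of the Hoxa cluster, was detected in 15 of 17 neurons with up to 239 fragments. Haglr, from the Hoxd cluster, reached 10 fragments in 7 neurons, and Hoxd3 in 2 of those 7. Hoxb3os reached 10 fragments in 7 neurons, 4 of them with Hoxb3 at 10. Hoxaas2, named after its value was seen, reached 175 fragments in the Type-1 Neuron 5 and 91 in the Type-1 Neuron 17, and at most 1 elsewhere (difference -0.64, exact permutation p = 0.0271, 1 after adjustment over all genes). In all, 14 of the 39 Hox genes overlap a gene on the other strand, among them Hoxa3, Hoxb2, Hoxb3, Hoxa4, Hoxb5 and Hoxd3, and the strand setting of the counting is not given in the sources used here. Reads of such pairs cannot be told apart if strand was not used. Without these 14 genes, 14 Hox genes were detected, 6 of them at 10 fragments, and the median per neuron was 3.

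The genes that flank the clusters were read as neighbours. All 12 were detected and 10 reached 10 fragments in at least 4 neurons, led by Hnrnpa1 beside cluster C and Mtx2 beside cluster D, each in 17 of 17 neurons, and Cbx5, also in 17. Evx2, a homeobox gene beyond Hoxd13 that marks V0 interneurons, had 106 to 1051 fragments in Neurons 1, 2, 5 and 14, all with 0 fragments of Hoxd13. Evx1, beyond Hoxa13, had 2368 fragments in Neuron 18 and 30 in Neuron 8. DESeq2 called 1 of the 10 to which it gave an adjusted p, Skap1, beside 1.98% of all genes, with a log2 fold change of 21.9 (SE 3.01, DESeq2 adjusted p = 3.17e-11) between mean log2(FPKM + 1) levels of 0.20 in Type-1 and 0.67 in Type-2. That fold change is not a measured ratio, since Skap1 had 174 fragments in the Type-1 Neuron 17 beside 619 and 389 in the Type-2 Neurons 2 and 7. The edgeR log2 fold change of Skap1 was 2.52 (SE 1.44, edgeR adjusted p = 0.515) and its exact permutation p was 0.406. By edgeR none of the 12 was called.

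Marker lists of other cells were read beside the Hox values, because cytoplasm drawn through a slice can carry RNA of its surroundings. The microglial sum had a median of 613 FPKM in Type-1 and 216 FPKM in Type-2 neurons, the astrocyte sum 309 and 270 FPKM, and the oligodendrocyte lineage sum 43.0 and 5.77 FPKM. Blood genes had medians of 94.1 and 0.863 FPKM. Inhibitory genes had medians of 2.97 and 25.3 FPKM, and the glutamatergic Slc17a6 44.8 and 28.2 FPKM. Endothelial genes summed to at most 15.0 FPKM, fibroblast and meningeal genes to at most 12.1 FPKM, and motor neuron genes to at most 4.66 FPKM, with Mnx1 at 0. An exact permutation p under 0.05 was reached by 2 of 52 marker genes tested, Pecam1 and Col1a2, beside 2.54% of all genes, both with the higher mean in Type-1. DESeq2 called 1 of 45 markers, the astrocyte gene Gfap, beside 1.98% of all genes. Its log2 fold change was 20.6 (SE 3.01), between mean log2(FPKM + 1) levels of 0.18 in Type-1 and 0.66 in Type-2. That is not a measured ratio, since Gfap had 47 fragments in the Type-1 Neuron 5. The edgeR adjusted p of Gfap was 0.558 and its exact permutation p was 0.518. The leading genes were C1qb and C1qc for microglia, Aldoc, Slc1a3 and Agt for astrocytes, Olig1 and Mbp for the oligodendrocyte lineage and Hbb-bs, Hba-a2 and Hba-a1 for blood, with Gad2, Slc6a5 and Gad1 for inhibitory neurons, Cldn5, Pecam1 and Kdr for endothelium, Col1a2, Col3a1 and Col1a1 for fibroblasts and Slc18a3, Chat and Isl1 for motor neurons. Among the 5 neurons with the highest microglial sums, Neurons 17, 7, 9, 8 and 16, the number of Hox genes at 10 fragments was 6, 3, 3, 4 and 4, beside a median of 4 over all neurons, and the part of these cells in the Hox values was not tested.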

How the data were processed

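Each library is the cytoplasm of 1 neuron. Reads were checked with FastQC 0.11.8, trimmed with cutadapt 3.2 and aligned with STAR 2.7.7a to mm10 (GRCm38), per the labels and the study's methods, and the authors counted fragments per gene with featureCounts. The deposited counts are whole numbers without normalization, and the deposited FPKM values equal count per gene length and library total. The deposited gene length, in bases, was used as given. Sample 10, which the authors discarded, and 0 further columns were left out. The members and gene lists were chosen with earlier results of these data known. Type-2 was compared with Type-1 over the 16 classified neurons and 31543 genes with a count, without covariates, by edgeR 4.0.16 (quasi-likelihood F-test, TMM, Benjamini-Hochberg adjustment), DESeq2 1.42.0 and a two-sided exact permutation test of mean log2(FPKM + 1) that enumerated 11440 splits and can give no p below 8.74e-05, in R 4.3.3 and Python 3.11.15. edgeR and the exact test were first tested on simulated data. Detection meant at least 1 or at least 10 fragments.

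Named with values were Hox genes with at least 10 fragments in at least 4 neurons, detected genes of groups 9 to 13, genes with an exact p under 0.05 and, per list, the 3 genes of highest mean level. Alternatives covered tool, size factors, filter, thresholds, postnatal day, pseudocount, unit, depth, opposite-strand overlap and each neuron left out. The older quasi-likelihood fit, DESeq2 without replacement of outlier counts, medians without Neurons 8 and 12, and gene differences without neurons whose inhibitory genes exceeded Slc17a6 were added after seeing the data. Gene positions come from GENCODE M21 and promoters from RefSeq, both on GRCm38. Of the lists, Hotairm2 and Haglros had no row. The values of some genes that the naming rule takes are not reported here.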

Additional observations from a re-analysis of the deposited data

Results flagged for a closer look

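In 27 groups of values, each of 7 Type-1 or 9 Type-2 neurons, the outermost neuron was compared with its nearest neighbour, and 5 neurons stood apart. Chance passes such a comparison in about 1 of 20 groups of evenly spread values, a rate that does not hold here, where many values are 0 and a lone value above 0 stands apart by construction. Neuron 16 was the only Type-1 neuron whose highest paralogue group at 10 fragments was 9, through Hoxc9, with the others at 4 or 5. On the log2(FPKM + 1) scale, Hoxa3 was at 0.472 in Neuron 17 and at 0 in the other Type-1 neurons. Hoxb3 was at 2.58 in Neuron 15, and Hoxb4 at 4.98 in Neuron 5, each above the other Type-1 neurons. In Type-2, Hoxb4 was at 0.775 in Neuron 14, above the other 8.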

How the results depend on the processing

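Of 108 Hox values above 0, 26 are 1 fragment, and a 0 means not detectable at that depth. The count of genes called between types was 0 by edgeR, 322 by DESeq2, 235 by DESeq2 without replacement of outlier counts and 1 by edgeR at an adjusted p under 0.05 with no fold limit. Of the Hox genes, 0 were called by edgeR and 1, Hoxc5, by either DESeq2 fit. With 1 neuron left out at a time, edgeR called 0 to 1 genes and 0 Hox genes. At an unadjusted p under 0.05, a filter on low counts (filterByExpr) left 0 of 3 Hox genes beside 5.08% of all genes, and the older quasi-likelihood fit gave 6 of 24 beside 21% of all genes. The cause of the gap between the tools was not tested. The exact test had no adjusted p under 0.05 with either pseudocount or with CPM. The median number of Hox genes per neuron, 6, became 3 at a limit of 1 FPKM and 3 without genes that overlap the other strand. The median highest group, 8 at 1 fragment, became 4 at 10 fragments and 4 at 1 FPKM. The 25 Hox genes detected became 14 at 10 fragments, 11 at 1 FPKM and 14 without genes that overlap the other strand. The median summed level, 52.2 FPKM, is 121 as summed CPM. For Hoxb2, Hoxb3 and Hoxd3 the sign turned in the share of neurons with a fragment, by 6.35, -23.8 and 4.76 percentage points (Type-2 minus Type-1), and Hoxb3 was -0.014 with a pseudocount of 0.1. With each neuron left out, the difference ran from -0.24 to 0.68 for Hoxa4, from -0.19 to 0.46 for Hoxb3, from -0.61 to 0.19 for Hoxb5, from -0.010 to 0.93 for Hoxc4 and from -0.25 to 0.17 for Hoxd3, and kept its sign for Hoxa2, Hoxa3, Hoxb2, Hoxb4 and Hoxc5. Without the neurons whose inhibitory genes exceeded Slc17a6, chosen after seeing the data, the difference turned to 0.16 for Hoxa2, -0.21 for Hoxa4, 0.37 for Hoxb5 and -1.98 for Hoxc4, and none of the 10 Hox genes compared had an exact p under 0.05. No paired analysis was possible because the neuron numbers in the labels are not shared between types.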

Other observations

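The Unknown neuron, Neuron 8, entered no comparison between types. It held 8 Hox genes at 1 fragment and 4 at 10 fragments, among them Hoxa2 with 103 fragments, Hoxb3 with 13 and Hoxc4 with 364. Its summed Hox level was 23.3 FPKM, below every Type-1 neuron and inside the range of Type-2. Its library held the most detected genes, 18174, with microglial markers at 4100 FPKM and blood markers at 6131 FPKM.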
